A study of Drosophila melanogaster with 24 samples.

Results

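The UDP-glycosyltransferase genes of *Drosophila melanogaster* were described in 6 lines derived by artificial selection on alcohol sensitivity. Members were all probe sets of the array that its annotation pairs with exactly 1 gene symbol beginning with Ugt and a digit, which gave 35 genes, each with 1 probe set, of 11982 genes paired in this way. UDP-glycosyltransferases are enzymes, mostly bound to the endoplasmic reticulum, that transfer a sugar from a UDP-sugar to small lipophilic molecules. In insects the sugar is mainly glucose. The products are more soluble and more readily excreted, so the family is counted with cytochrome P450s and glutathione S-transferases among the enzymes of detoxification. Some members also act on odorants, pigments and hormones.

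Transcript abundance was measured on 24 Affymetrix Drosophila Genome 2.0 arrays, 1 for each RNA pool of 15 whole virgin flies aged 3 to 5 days. At generation 25 of selection, 2 pools of each sex were taken from each of 2 resistant lines (R1 and R2), 2 sensitive lines (S1 and S2) and 2 control lines (C1 and C2). All lines came from 1 heterogeneous base population, and the control lines were bred without selection. According to the sample labels every pool had been exposed to ethanol vapor ahead of RNA extraction, a step that is missing from the paper's description of the arrays, so no comparison here separates basal from induced transcript. Selection was replicated over lines and not over pools, and nothing states that pools of a line came from separate cultures, so p-values between lines measure the spread between RNA pools. The values are MAS5 Signals, an intensity per probe set that the authors scaled alike on every array.

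Signals of the members covered several orders of magnitude, and probe sets of different genes cannot be set against each other because each has its own affinity. In all, 25 members reached a Signal of 50 on at least 12 of the 24 arrays and were tested among 11857 probe sets. The other 10 stayed under 50 on most arrays. Of these, *Ugt37C1*, *Ugt49B2* and *Ugt35D1* were at 50 or above on 0 arrays, *Ugt37A1* on 2, *Ugt307A1* and *Ugt35E2* on 3, *Ugt35E1* and *Ugt37E1* on 5, *Ugt302K1* on 6 and *Ugt37C2*, the nearest to the limit, on 10. Just inside the limit were *Ugt36F1* on 13 arrays and *Ugt303B2* on 14. *Ugt36F1* passed on all 12 male arrays and 1 female array and *Ugt303B2* on 10 male and 4 female arrays, so both entered the tests mainly through males. *Ugt36E1*, *Ugt37D1* and *Ugt50B3* were read by a probe set type that can match more than 1 transcript. No sequence of the genes or their probes was used here.

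**Figure D1:**
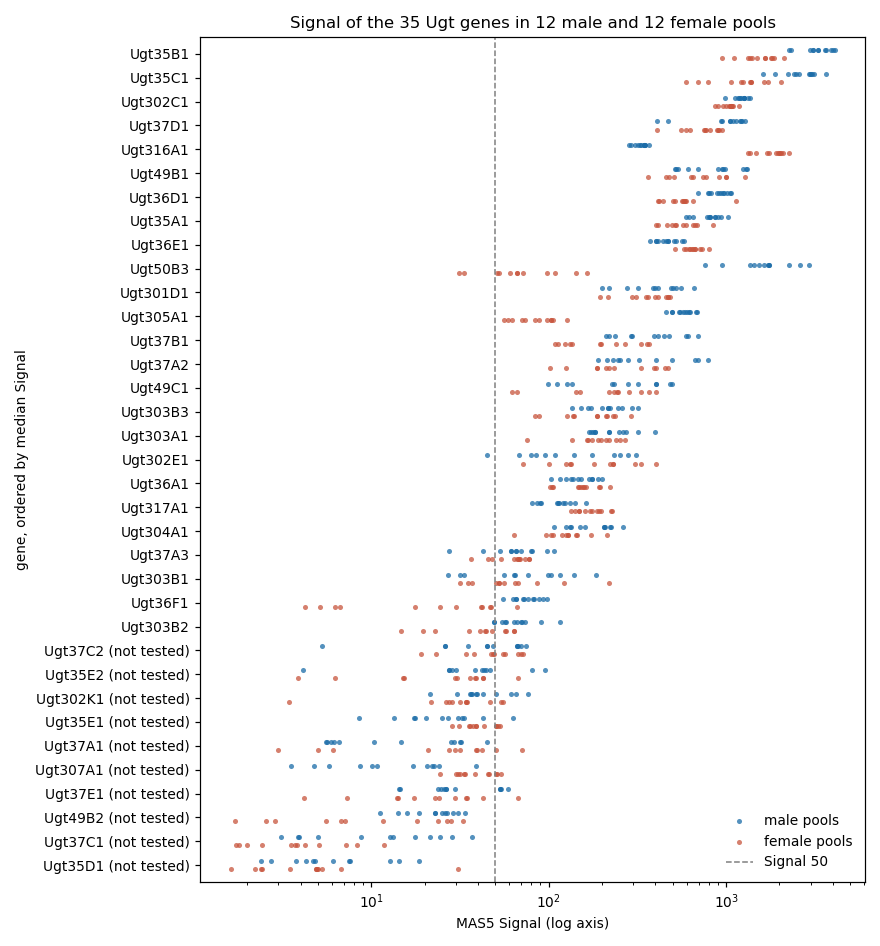
MAS5 Signal on a log axis for each of the 35 *Ugt* genes, ordered by median, with 1 point per RNA pool (blue: 12 male pools, red: 12 female pools) and a dashed line at Signal 50. *Ugt50B3*, *Ugt305A1* and *Ugt35B1* show male points wholly above female points, *Ugt316A1* shows the reverse, and the 10 genes marked as not tested lie mostly left of the dashed line.

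Most members lie next to other members on the chromosomes. By the order of genes in the RefSeq annotation (Release 6 plus ISO1 MT), 23 of the 35 fall into 6 groups with at most 5 other genes between successive members. The largest holds 10 genes, *Ugt35C1*, *Ugt302K1*, *Ugt302E1*, *Ugt302C1*, *Ugt35E1*, *Ugt35E2*, *Ugt35B1*, *Ugt35A1*, *Ugt304A1* and *Ugt303A1*. The others are *Ugt37C2*, *Ugt37E1* and *Ugt37D1*, then *Ugt36F1*, *Ugt36D1* and *Ugt36E1*, then *Ugt303B3*, *Ugt303B1* and *Ugt303B2*, and the pairs *Ugt49B1* with *Ugt49C1* and *Ugt37A2* with *Ugt37A3*. Neighbours of such groups can be near-identical copies, and cross-hybridisation between them was not measured.

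The arrays differed by sex as a whole. The median Signal over non-control probe sets was 131 to 149.8 on male arrays and 55.7 to 81.0 on female arrays. Tissue markers separated the sexes. For 8 testis genes the summed Signal was 26278 to 36041 (males) and 35.4 to 134 (females). For 5 yolk and fat body genes it was 1273 to 10418 (males) and 49041 to 68076 (females). Of these 5, 4 were higher in females in the test used below and 1, *Lsp2*, was higher in males. In R2, *Lsp2* was 9098 and 10010 in males and 804 and 395 in females, so it made up most of the highest male sum. Female pools of a line were less alike than male pools, and those of S1 least. The log2 Signals of the S1 female pools had a correlation of 0.958. It was 0.969 to 0.974 in the other female groups and 0.978 to 0.986 in male groups. Between the S1 female pools 1479 probe sets differed by over 2-fold, against 946 to 1295 in the other female groups. So did 5 of the 25 tested members, against 0 to 3 in the other groups. The summed Signal of 4 flight muscle genes was 20770.0 in the first S1 female pool and 74430 in the second. Calls of the sex difference are also given without these pools, and line, contrast and line pair calls in male pools alone.

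Males and females were compared over all 6 lines. *Ugt50B3* and *Ugt305A1* led the members that were higher in males and *Ugt316A1* those higher in females. With limma, 11 of the 25 tested members (44%) were higher in males at an adjusted p under 0.001 and 3 (12%) were higher in females, where 36% and 42.3% of all tested probe sets were called. The 11 include *Ugt36F1* and *Ugt303B2*, which passed the Signal filter mainly through males (12 male and 1 female arrays, and 10 and 4). *Ugt307A1*, at 50 or above on 3 female and 0 male arrays, was left out by the filter, so the counts depend in part on it. The male share of the family was thus near the background and its female share below it. The median male minus female difference was 0.33 on the log2 scale over the members and -0.041 over all tested probe sets. In whole flies, fewer cells of a type and less RNA per cell cannot be told apart. Some markers of tissues that both sexes have moved with sex as well, though of 4 flight muscle genes 1 was higher in males and 0 in females. All 5 antenna genes were higher in males (summed Signal 3066 to 6619.9 in males and 1376 to 3437 in females), as were all 4 photoreceptor genes (29032 to 38268 and 20652 to 32803) and both Malpighian tubule genes (1025 to 2440.0 and 506 to 1882), whereas of 8 gut genes 1 was higher in males and 4 in females. The part of these tissues, and of those present in only 1 sex, was not tested.

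*Ugt50B3* had the widest difference. Its Signal was 762 to 2941 (median 1672) in males, against 31.4 to 164 (median 66.5) in females. The sexes did not overlap, and female pools lay near the limit of 50, where Signal is least precise. The difference was 4.53 ± 0.12, adjusted p = 8.49e-16 (23.2-fold), and within lines it ran from 3.72 in S2 to 5.36 in C1. *Ugt305A1*, which the annotation also lists as *Tes36*, had Signals of 460.0 to 685 (median 579.9) in males and 56.4 to 126 (median 86.1) in females. These did not overlap either (2.78 ± 0.092, adjusted p = 1.41e-14, 6.88-fold), and the difference was positive in each of the 6 lines, from 2.53 to 3.25.

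The next members overlapped between the sexes, except *Ugt35B1*. *Ugt35B1* is the gene formerly called *Ugt35b*, known for its expression in the antenna, and is named in the study. Its Signal was 2265 to 4107 (median 3317) in males, against 954 to 2112 (median 1572) in females. Every male pool was above every female pool, with a difference of 1.10 ± 0.04, adjusted p = 4.58e-14 (2.15-fold). *Ugt35C1*, in the same group of neighbours, had 1615 to 3669 (median 2747) in males and 596 to 2028 (median 1306) in females (1.13 ± 0.10, adjusted p = 5.42e-09). *Ugt37B1* had 211 to 699 (median 402) in males and 108 to 366 (median 196) in females (0.95 ± 0.14, adjusted p = 6.29e-06). In these genes the highest female pools reached into the male range. *Ugt36F1* was 55.3 to 97.8 (median 74.5) in males and 4.22 to 66.4 (median 27.3) in females, so that most female pools were below 50 and the size of its difference (1.94 ± 0.27, adjusted p = 3.19e-06) cannot be ranked with those above. The other members higher in males were *Ugt302C1*, *Ugt303B2*, *Ugt35A1*, *Ugt36D1* and *Ugt37D1*, with differences of 0.24 to 0.77.

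A smaller set, 3 members, went the other way. *Ugt316A1* had 282 to 367 (median 337) in males and 1331 to 2277 (median 1931) in females, with no overlap and a difference of -2.46 ± 0.066, adjusted p = 1.05e-15 (5.48-fold higher in females). The difference lay between -2.68 and -2.05 in every line. *Ugt36E1* had 371 to 582 (median 464) in males and 519 to 800.0 (median 649) in females (-0.48 ± 0.047, adjusted p = 4.17e-08). Its neighbour *Ugt36D1* was higher in males, so the sex difference changed direction between adjacent members. *Ugt317A1* had 80.8 to 163 (median 113) in males and 133 to 227 (median 174) in females (-0.64 ± 0.12, adjusted p = 6.72e-05). Full separation was rare, since male and female pools did not overlap in 4 tested members (16%) against 52.6% of all tested probe sets.

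The counts depended on the scaling. With array medians aligned, which moved the median sex difference of all probe sets by 0.18 to 0.14, 16 members were higher in males and 2 in females. With quantile normalization over all arrays, which moved it by -0.24 to -0.28, the split was 10 to 8, and *Ugt303B2* and *Ugt36F1* turned to -1.53 and -0.48. The calls of *Ugt50B3*, *Ugt305A1*, *Ugt35B1*, *Ugt35C1*, *Ugt37B1*, *Ugt35A1*, *Ugt36D1*, *Ugt302C1*, *Ugt316A1* and *Ugt36E1* and their directions held under each of 9 alternatives and in each of 24 fits without 1 pool. *Ugt37D1* was called in only 5 of 24 fits that left out 1 pool, and leaving out both S1 female pools gave 10 members higher in males and 3 in females.

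**Figure D2:**
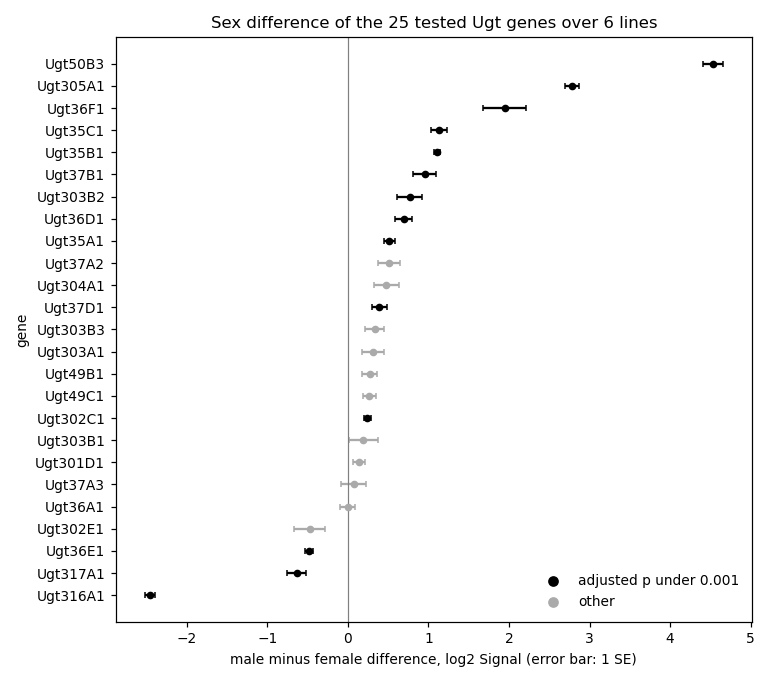
Male minus female difference in log2 Signal over 6 lines for the 25 tested *Ugt* genes, with error bars of 1 SE; black points passed an adjusted p under 0.001. *Ugt50B3* at 4.53 and *Ugt305A1* at 2.78 lie at the male end and *Ugt316A1* at -2.46 at the female end; *Ugt303B2* and *Ugt36F1* change sign with quantile normalization over all arrays.

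The 6 lines differed in a larger share of the family than of the array. A line effect was called for 10 of the 25 tested members (40%) at an adjusted p under 0.001, against 12.3% of all tested probe sets. The same share was 40.3% among 72 tested cytochrome P450 genes and 46.9% among 32 tested glutathione S-transferase genes. The members were *Ugt301D1*, *Ugt303B1*, *Ugt35B1*, *Ugt35C1*, *Ugt37A2*, *Ugt37B1*, *Ugt37D1*, *Ugt49B1*, *Ugt49C1* and *Ugt50B3*. Of these, *Ugt301D1*, *Ugt35B1*, *Ugt37A2*, *Ugt49C1* and *Ugt50B3* kept the call under 8 alternatives that use pools of both sexes and in each of 24 fits without 1 pool, but *Ugt37A2* and *Ugt50B3* lost it in male pools alone. That fit has only the 12 male arrays. With all pools, the resistant minus sensitive difference of *Ugt50B3* was 0.99 ± 0.21 in males and 0.20 ± 0.21 in females. *Ugt35C1*, *Ugt37B1* and *Ugt37D1* lie close to the threshold and kept the line call in 5, 5 and 4 of the 24 fits without 1 pool. In male pools alone, 3 members were called, *Ugt301D1*, *Ugt35B1* and *Ugt49C1* (12%, against 4.3% of all probe sets). A line by sex interaction was called by limma for 0 members, against 0.245% of all probe sets. At an unadjusted p under 0.05 there were 6 members (22.4% of all probe sets had such a p).

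*Ugt49C1* had the lowest adjusted p of the family for the line effect (3.14e-08). Among male pools its Signal was 233 and 280.3 in R1, 99.4 and 135 in R2, 495 and 483 in S1, 404 and 403 in S2, 318 and 227 in C1 and 127 and 112 in C2. Among female pools it was 243 and 233 in R1, 61.9 and 66.7 in R2, 284 and 405 in S1, 369.7 and 332 in S2, 219 and 246 in C1 and 151 and 142 in C2. Both sexes ranked S1 and S2 highest, and every S1 and S2 pool was above every pool of the other lines of its sex. In females R2 was lowest, with a mean of 64.3 against 147 in C2. In males the pools of R2 and C2 overlapped, with means of 117 and 119. Averaged over the sexes, the geometric mean was 407 in S1 and 86.2 in R2, a 4.72-fold range. In the order S1, S2, C1, R1, C2 and R2, S1 and S2 did not differ beyond the spread between pools (log2 difference 0.11 ± 0.14), nor did C1 and R1 (0.019 ± 0.14), whereas S2 was above C1 by 0.59 ± 0.14, R1 above C2 by 0.90 ± 0.14 and C2 above R2 by 0.62 ± 0.14. The difference between C2 and R2 rested mainly on the female pools.

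Its neighbour *Ugt49B1* also had low Signals in R2 and C2. Male pools gave 1249.6 and 1307 in R1, 612 and 533 in R2, 1294 and 897 in S1, 943 and 961 in S2, 986 and 692 in C1 and 523 and 517 in C2. Female pools gave 1003 and 998 in R1, 364 and 475 in R2, 743 and 1278 in S1, 636 and 652 in S2, 769.6 and 907 in C1 and 507 and 459 in C2. R1 was the highest line, at 1131, and R2 the lowest, at 488 (line effect adjusted p = 3.11e-05), and C2 minus R2 was 0.039 ± 0.16, within its error. R1 minus S1 was 0.14 ± 0.16, also within its error. The adjacent genes thus shared their lowest lines, R2 and C2, while S1 was the highest line of *Ugt49C1* and not separated from the highest of *Ugt49B1*. The line effect of *Ugt49B1* was lost under the analysis of variance of the methods.

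*Ugt303B1* had line means from 162 in R1 to 33.0 in R2 (adjusted p = 0.000406), and the latter is under the limit of 50, where Signal is least precise. Male pools were 186 and 139 in R1, 31.5 and 33.5 in R2, 56.3 and 27.2 in S1, 104 and 63.7 in S2, 98.9 and 64.7 in C1 and 116 and 77 in C2. Female pools were 220.1 and 121 in R1, 31.9 and 35.2 in R2, 37.1 and 64.2 in S1, 67 and 52.7 in S2, 86.4 and 56.2 in C1 and 50.5 and 52.7 in C2. Only R1 had every pool over 100 in both sexes, and R2 had every pool under 50, so that the resistant lines were the extremes of this gene. Its neighbours did not follow it, as *Ugt303B2* was highest in R2 and *Ugt303B3* lowest in R1, neither with a line effect (adjusted p = 0.00884 and 0.00211). With these low Signals the *Ugt303B1* call was lost in 7 of 24 fits without 1 pool and in the methods' analysis of variance.

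*Ugt37A2* was high in the control lines. Its male pools were 401 and 323 in R1, 230.5 and 279 in R2, 245 and 189 in S1, 213 and 251 in S2, 695 and 793 in C1 and 672 and 496 in C2. Its female pools were 330.0 and 394 in R1, 125 and 220.3 in R2, 102 and 188 in S1, 234 and 188 in S2, 401 and 454 in C1 and 211 and 471 in C2. In males, all 4 control pools were above all 8 pools of the selected lines, while 1 female pool of C2 fell among them. The line means ran from 563 in C1 to 173 in S1 (adjusted p = 0.000187). *Ugt37A3*, next to it, was under or near 100 on nearly all arrays and had no line effect (adjusted p = 0.117).

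*Ugt301D1* was low in S1. Its male pools were 505 and 400.1 in R1, 524 and 663 in R2, 219 and 201 in S1, 556 and 489.8 in S2, 388 and 277 in C1 and 416 and 318 in C2. Its female pools were 483 and 473 in R1, 352 and 457 in R2, 215 and 194 in S1, 397 and 361 in S2, 310.0 and 297 in C1 and 412 and 471 in C2. All 4 S1 pools were below every other pool, and in the order of the lines R2 did not differ from R1 nor R1 from S2 beyond the spread between pools (0.069 ± 0.13 and 0.061 ± 0.13; line effect adjusted p = 1.42e-05). *Ugt50B3* was low in S1 as well, and high in R2. Its male pools were 2252 and 1756 in R1, 2941 and 2622 in R2, 762 and 949 in S1, 1752 and 1543 in S2, 1716 and 1628 in C1 and 1434 and 1367 in C2. Its female pools were 51.1 and 66.5 in R1, 98.4 and 164 in R2, 33.3 and 61 in S1, 144 and 109 in S2, 31.4 and 52.6 in C1 and 66.4 and 71.9 in C2. The male pools of R2 were above all others and those of S1 below all others, and R2 also held the highest female pool (adjusted p = 0.000183).

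*Ugt35B1* varied least of the called members, 1.72-fold, but its pools were close together (adjusted p = 2.15e-06). Its male pools were 2958 and 3098 in R1, 3999 and 3884 in R2, 3318 and 3099 in S1, 2315 and 2265 in S2, 3589 and 4107 in C1 and 3315 and 3655 in C2. Its female pools were 1490.2 and 1328 in R1, 1368 and 1401 in R2, 1653 and 1667 in S1, 1109 and 954 in S2, 1786 and 1862 in C1 and 2112 and 1822 in C2. S2 was the lowest line in both sexes with no overlap with any other line of that sex. The remaining called members were *Ugt35C1*, from 1259 in S1 to 2364 in C2, *Ugt37B1*, from 171 in R2 to 429 in C1, and *Ugt37D1*, from 501 in S1 to 1066 in C1. *Ugt302E1* and *Ugt35A1* missed the threshold narrowly, with adjusted p-values of 0.00109 and 0.00123, and *Ugt302E1* had line means from 82.1 in S2 to 329 in C1. Among the 10 neighbouring genes around *Ugt35B1*, 2 were called, 5 were tested and not called, and 3 were not tested.

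**Figure D3:**
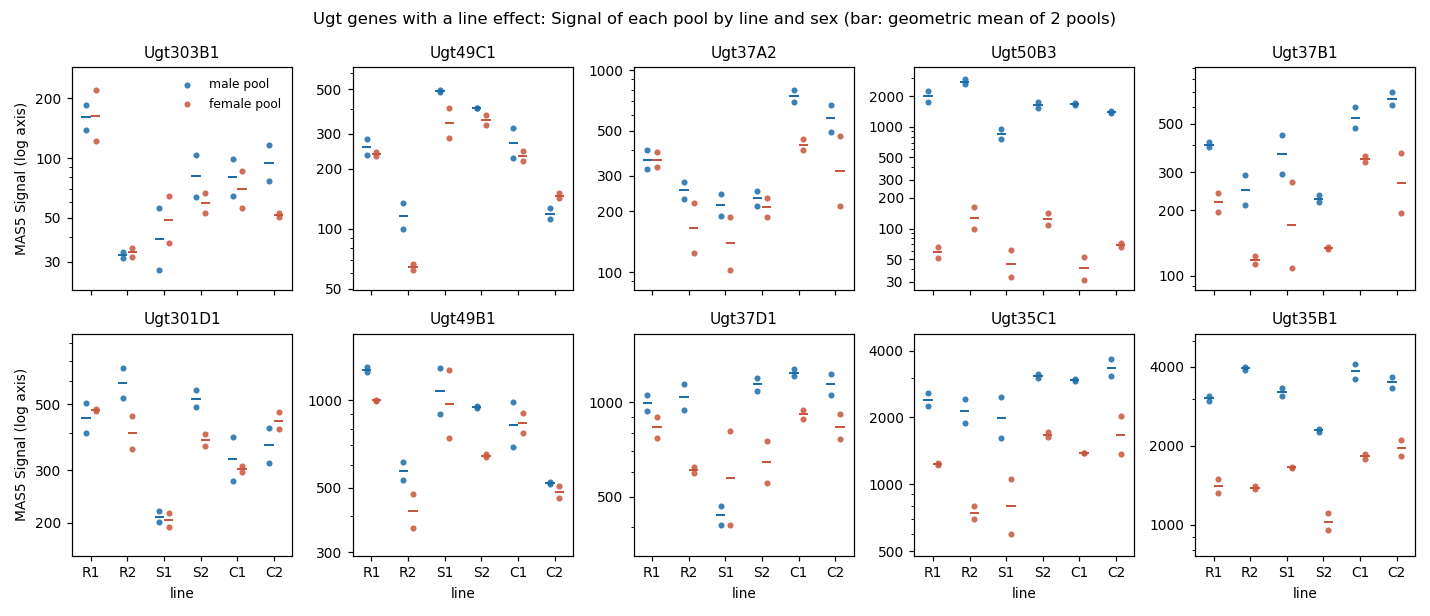
MAS5 Signal on a log axis for the 10 *Ugt* genes with a line effect, by line, with 1 point per pool (blue: male, red: female) and a bar at the geometric mean of the 2 pools of a group. *Ugt49C1* is highest in S1 and S2, *Ugt301D1* lowest in S1, and *Ugt37A2* and *Ugt37B1* are high in C1 and C2.

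Resistant and sensitive lines were compared next. A contrast with an unadjusted p under 0.05 was called if the line effect or the interaction had passed its threshold. Among members this gate let through only the 10 with a line effect (40%), where 12.3% of all tested probe sets had one. Shares called in contrasts between lines, here and below, therefore start from that difference and are not separate results. *Ugt301D1*, *Ugt35B1*, *Ugt37A2*, *Ugt37D1* and *Ugt50B3* were higher in resistant lines (5 of 25, 20%) and *Ugt49B1* and *Ugt49C1* lower (2 of 25, 8%), against 5.23% and 3.54% of all tested probe sets. The calls *Ugt301D1*, *Ugt49C1* and *Ugt50B3* had a single direction across line pairs and sexes (12%, against 3.55%). This rule uses only the sign of each difference, however small. *Ugt301D1* had means of 486 in R2 and 444 in S2, and female pools of *Ugt50B3* were 98.4 and 164 in R2 and 144 and 109 in S2. Among these genes only *Ugt49C1* was called in both line pairs. The median difference over the members was 0.11 and over all tested probe sets 0.027. The difference of this contrast between the sexes passed an adjusted p of 0.05 for 0 members in limma (background 0.422%). At an unadjusted p under 0.05 there were 2 members, *Ugt35B1* and *Ugt50B3*, against 8.43% of all probe sets.

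For *Ugt49C1*, the mean Signal of male pools was 187 ± 84.1 in resistant, 446 ± 49.5 in sensitive and 196 ± 96.3 in control lines (SD, n = 4 pools), and that of female pools 151 ± 100.2, 348 ± 51.7 and 189.6 ± 50.9. Every sensitive pool was above every resistant pool of its sex. The resistant minus sensitive difference was -1.42 ± 0.10, adjusted p = 8.64e-08 (2.68-fold lower in resistant lines), with -1.37 ± 0.14 in males and -1.48 ± 0.14 in females. For *Ugt301D1* the means were 523 ± 108 and 366 ± 183 in males and 441 ± 60.2 and 292 ± 102 in females. Resistant and sensitive pools overlapped, since S2 was as high as R1 and R2, and the difference was 0.65 ± 0.094, adjusted p = 0.000174. For *Ugt50B3* the means were 2393 ± 509 and 1252 ± 471 in males and 95 ± 50 and 86.7 ± 49.2 in females (0.59 ± 0.15, adjusted p = 0.0107). In males the lowest resistant pool was above the highest sensitive pool by a few units of Signal (0.99 ± 0.21). The female difference, 0.20 ± 0.21 (limma, adjusted p = 0.671), was within its error.

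The other calls were smaller. The difference was 0.48 ± 0.17 for *Ugt37A2*, 0.38 ± 0.11 for *Ugt37D1*, 0.22 ± 0.049 for *Ugt35B1* and -0.27 ± 0.11 for *Ugt49B1*. In each gene the line means of 1 pair went the other way, but only in *Ugt35B1* was that reversal called. There R1 was below S1 (2064 and 2307) by 0.16 ± 0.069. The other reversals were within their errors. R2 was below S2 by 0.10 ± 0.25 in *Ugt37A2* (205 and 220) and by 0.11 ± 0.16 in *Ugt37D1* (796 and 858). R1 was above S1 by 0.14 ± 0.16 in *Ugt49B1* (1131 and 1025). *Ugt37A2* and *Ugt49B1* had adjusted p-values over 0.05 for the resistant minus sensitive contrast itself (0.0749 and 0.113). *Ugt37D1* was called in only 4 of 24 fits without 1 pool, and *Ugt49B1* in 20. In male pools alone, *Ugt301D1* and *Ugt35B1* were higher (8%, background 2.01%) and *Ugt49C1* lower (4%, background 1.34%) in resistant lines. Some markers of other tissues were called in this contrast, but 0 of the 5 ovary, 7 testis and 4 flight muscle genes tested were. Of 8 gut genes 4 were called higher in resistant lines. The summed Signal of the 8 in males was 62703 to 86828 in resistant and 39438 to 71554 in sensitive pools. In females it was 53528 to 79894 in resistant and 39266 to 89739.7 in sensitive pools. S2 had the lowest mean gut sum of the 6 lines (41588), while S1 (71423) was above R2 (61862). The median log2 difference of the gut genes was 0.18 for R1 minus S1 and 1.51 for R2 minus S2. Of 5 antenna genes 3 were called higher, with sums in males of 5589 to 6619.9 and 3179 to 4496 and in females of 2071 to 3437 and 1376 to 3398. Also called higher were 3 of 5 yolk and fat body genes, with sums in males of 1755 to 10418 and 1273 to 3082 and in females of 49494 to 59391 and 49041 to 68076, and 1 of 2 Malpighian tubule genes, with sums in males of 1546 to 2399.6 and 1025 to 1533 and in females of 774 to 1370.2 and 506 to 1117. The same held for 1 of 4 photoreceptor genes, while 1 of 8 accessory gland genes was called higher and 1 lower. Of the gut, antenna, tubule and photoreceptor genes 0 were under 50 on all arrays of a sex, against 1 yolk and fat body gene in males. The part of these tissues in the *Ugt* differences was not tested.

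Against the control lines, more members were lower than higher in both directions of selection. In resistant lines *Ugt301D1* and *Ugt50B3* were higher (8%, background 3.32%) and *Ugt35B1*, *Ugt35C1*, *Ugt37A2*, *Ugt37B1*, *Ugt37D1* and *Ugt49C1* lower (24%, background 4.54%). In sensitive lines *Ugt49B1* and *Ugt49C1* were higher (8%, background 2.75%) and *Ugt301D1*, *Ugt35B1*, *Ugt35C1*, *Ugt37A2*, *Ugt37B1* and *Ugt37D1* lower (24%, background 5.83%). These comparisons share the control pools. The mean of *Ugt49B1* in S2 (783) was below that of C1 (831), and its call in sensitive lines was kept under 7 of 11 alternatives. For *Ugt49C1*, R1 (246) was near C1 (250) and above C2 (132), and its call in resistant lines was kept under 6 of 11 alternatives. *Ugt301D1* was lower in S1 only, since the mean of S2 (444) was above those of C2 (400.3) and C1 (315), and its call in sensitive lines was kept under 6 of 11 alternatives and in 17 of 24 fits without 1 pool. With array medians aligned, or quantile normalization within each sex, the counts were 2 higher and 3 lower in each comparison, without *Ugt35C1*, *Ugt37B1* and *Ugt37D1*. In male pools alone, 1 member was higher (background 1.48%) and 0 lower (background 1.42%) in resistant lines, and 1 higher (background 1.16%) and 1 lower (background 1.95%) in sensitive lines.

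The 5 members *Ugt35B1*, *Ugt35C1*, *Ugt37A2*, *Ugt37B1* and *Ugt37D1* were called lower in resistant and in sensitive lines alike (20%, against 2.64% of all tested probe sets), and 0 were called higher in both (background 1.27%). *Ugt37A2* had a resistant minus control difference of -0.85 ± 0.17 and a sensitive minus control difference of -1.33 ± 0.17. The corresponding values were -0.91 ± 0.17 and -1.02 ± 0.17 for *Ugt37B1*, -0.26 ± 0.049 and -0.48 ± 0.049 for *Ugt35B1*, -0.26 ± 0.11 and -0.64 ± 0.11 for *Ugt37D1* and -0.57 ± 0.12 and -0.37 ± 0.12 for *Ugt35C1*. Averaged over the sexes, the means of C1 and C2 were both above those of all 4 selected lines in *Ugt35B1*, *Ugt37A2*, *Ugt37B1* and *Ugt37D1* (16%, background 5.8%). In 0 members were both control means below them (background 6.29%). *Ugt35C1* was the exception among the 5, with S2 between C2 and C1. C2 was above R1 by 0.10 ± 0.16 in *Ugt37D1* and 0.24 ± 0.25 in *Ugt37A2*, within the error. The order did not always hold within a sex. In males the mean of *Ugt35B1* was 3941 in R2, against 3848 in C1 and 3485 in C2. In females that of *Ugt37A2* was 362 in R1 and 341 in C2. In males, every control pool of *Ugt37B1* was above every pool of the selected lines. Controls had 597 and 476 in C1 and 699 and 610.4 in C2. The selected lines had 412 and 391 in R1, 211 and 292 in R2, 444 and 295 in S1 and 218 and 235 in S2. Female pools of *Ugt37B1* overlapped, with 333 and 357 in C1, 194 and 366 in C2, 198 and 240.2 in R1, 113 and 123 in R2, 108 and 269.8 in S1 and 136 and 132 in S2.

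The line pairs R1 with S1 and R2 with S2 share no pools and were compared separately. In the first pair 6 members were higher in the resistant line (24%, background 4.6%) and 2 lower (8%, background 3.51%), and in the second 1 was higher (4%, background 5.23%) and 4 lower (16%, background 3.84%). *Ugt49C1* was the only member called in the same direction in both pairs (4%, background 2.43%), at -0.72 ± 0.14 for R1 minus S1 and -2.12 ± 0.14 for R2 minus S2. *Ugt303B1*, *Ugt35B1* and *Ugt35C1* were called in opposite directions (12%, background 3.33%), and none of them kept both calls in male pools alone. *Ugt303B1* was 1.89 ± 0.31 in the first pair and -1.07 ± 0.31 in the second, *Ugt35C1* 0.45 ± 0.17 and -0.85 ± 0.17, and *Ugt35B1* -0.16 ± 0.069 and 0.61 ± 0.069. Without 1 pool, both calls of *Ugt303B1* were kept in 17 of 24 fits, the first-pair call of *Ugt35B1* in 20 and the calls of *Ugt35C1* in 4 and 5. The analysis of variance of the methods lost the calls of *Ugt303B1* and *Ugt35C1* and the first-pair call of *Ugt35B1*. In male pools alone, the first pair had *Ugt301D1* called higher in the resistant line (4%, background 2.03%) and *Ugt49C1* lower (4%, background 0.886%), at 1.10 and -0.93, and the second had *Ugt35B1* higher (4%, background 1.67%) and *Ugt49C1* lower (4%, background 1.58%), at 0.78 and -1.80. The first-pair calls of *Ugt303B1*, *Ugt35B1*, *Ugt35C1*, *Ugt37A2*, *Ugt37D1* and *Ugt50B3* were lost there.

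The difference between the pairs was itself tested and passed an adjusted p of 0.05 for 10 members (40%, background 18.4%). They included *Ugt49C1*, whose difference was larger in the second pair by 1.40 ± 0.20 (adjusted p = 0.000141), and *Ugt301D1*, which was 1.16 ± 0.13 for R1 minus S1 and 0.13 ± 0.13 for R2 minus S2. *Ugt50B3*, at 0.80 ± 0.21 and 0.39 ± 0.21, was not among them (adjusted p = 0.373). Lines of 1 selection group differed as well. Between R1 and R2 8 members were called (32%, background 7.27%), between S1 and S2 7 (28%, background 9.61%), and between the control lines 3 (12%, background 7.21%), namely *Ugt301D1* (-0.34 ± 0.13 for C1 minus C2), *Ugt49B1* (0.73 ± 0.16) and *Ugt49C1* (0.92 ± 0.14). These 8, 7 and 3 were among the 10 members with a line effect. Over all tested probe sets, 862, 1139 and 855 were called and 1453 had a line effect. R1 and R2 differed in *Ugt303B1* by 2.30 ± 0.31, in *Ugt49C1* by 1.51 ± 0.14 and in *Ugt49B1* by 1.21 ± 0.16.

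**Figure D4:**
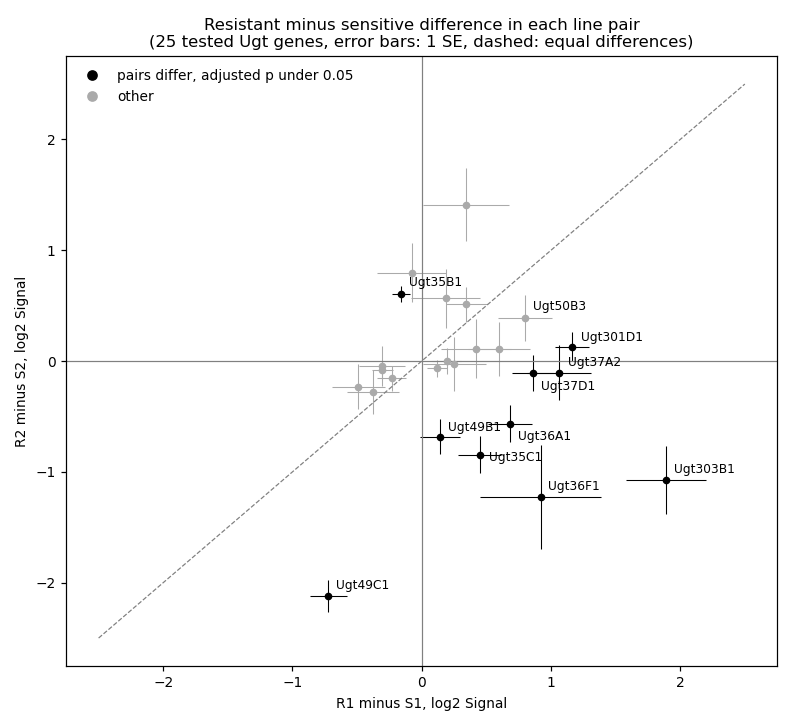
Resistant minus sensitive difference in log2 Signal in the first line pair (R1 minus S1, x axis) and the second (R2 minus S2, y axis) for the 25 tested *Ugt* genes, with error bars of 1 SE; black points had pairs that differed at an adjusted p under 0.05 and the dashed line marks equal differences. *Ugt49C1* is negative on both axes, and *Ugt303B1*, at 1.89 and -1.07, lies farthest from the dashed line.

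With lines rather than pools as the unit, little remained. With line as a random block in limma, *Ugt49C1* was the only member called between resistant and sensitive lines (adjusted p = 0.0355; 4%, background 0.793%), and 0 were called against control lines. Against control lines, 4 members had an unadjusted p under 0.05 in resistant and 7 in sensitive lines in that fit (7.69% and 6.99% of all probe sets). With 1 mean per line and 2 lines per group, limma called 0 members and 0 probe sets in any of the 3 contrasts at an adjusted p under 0.05. At an unadjusted p under 0.05, 2 members, *Ugt305A1* and *Ugt49C1*, differed between resistant and sensitive lines (8%, background 5.16%), 2 between resistant and control lines (background 4.52%) and 5 between sensitive and control lines (20%, background 3.48%). For *Ugt49C1* the line means gave -1.42 ± 0.53 with an unadjusted p of 0.038 and an adjusted p of 0.934. An exact permutation test of 2 lines against 2 cannot give a two-sided p below 0.333. Both resistant means were above both sensitive means in 4 members (16%, background 19.6%), *Ugt301D1*, *Ugt302E1*, *Ugt303A1* and *Ugt305A1*, and below them in 3 (12%, background 12.6%), *Ugt317A1*, *Ugt36E1* and *Ugt49C1*.

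Genes that supply the sugar donor, regulate detoxification or act beside the family were counted from a list of 25, of which 20 were paired with a probe set and 18 were tested. A line effect was called for 5, namely *sgl*, *cnc*, *maf-S*, *St1* and *Mdr65*, against 12.3% of all probe sets, and 2 were called higher (background 5.23%) and 1 lower (background 3.54%) in resistant than in sensitive lines. *sgl*, the UDP-glucose dehydrogenase that turns UDP-glucose into UDP-glucuronic acid, was higher by 0.46 ± 0.072 (adjusted p = 0.000335), with 0.90 in the first pair and 0.023 in the second. *UGP*, which makes UDP-glucose, had a difference of -0.33 ± 0.18 that did not pass the test (adjusted p = 0.228). *cnc*, the fly counterpart of Nrf2, and its partner *maf-S* had line effects with -0.57 and -0.30 in the first pair and 0.49 and 0.43 in the second, and -0.041 and 0.067 over both pairs. *Mdr65*, an efflux transporter of the blood-brain barrier, was higher in resistant lines by 0.53 ± 0.095 (adjusted p = 0.00109), and the sulfotransferase *St1* differed by -0.56 ± 0.15 (adjusted p = 0.0192), with 0.28 in the first pair and -1.41 in the second.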

How the data were processed

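Transcript abundance had been measured in 24 RNA pools on Affymetrix Drosophila Genome 2.0 arrays. The deposited table gives each probe set an intensity on each array, namely the linear Signal of the authors' MAS5 software (version not given in the sources used here). Of 18952 probe sets, 183 controls were left out; 13647 carried a single gene symbol, 402 carried more than 1 and 4720 carried no symbol. A trimmed mean of 500.01 to 500.02 on every array showed the scaling; no further scaling was applied. Signals were raised to a floor of 1 (325 of 284568 tested values), log2 transformed and fitted with limma 3.58.1 in R 4.3.3 (lmFit, eBayes with intensity trend), with 1 mean for each of 12 groups of line and sex. Probe sets with Signal of at least 50 on at least 12 arrays were tested, and Benjamini-Hochberg adjustment ran over all of them. Sex, line and interaction had a threshold of 0.001. Contrasts between lines were called where line or interaction passed and the contrast had p under 0.05, after the study's methods. Differences between pairs or sexes of a contrast had a threshold of 0.05. Values after ± are SE unless given as SD. The number of arrays limits the precision. Members, gene lists and markers were chosen with earlier results of these data known. Genes described one by one were, by rule, the 6 with the largest sex difference in each direction, the 10 with the widest range of line means among those with a line effect, those that differed alike across pairs and sexes or oppositely between pairs, and *Ugt35B1*, named in the study. The fit was tested on simulated data. Alternatives changed the filter, pseudocount, scaling, variance model, replicate block, line as unit and each pool. Detection calls were not used here.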

Additional observations from a re-analysis of the deposited data

Results flagged for a closer look

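In 3 of 150 groups of 4 pools (25 tested members, 3 selection groups, 2 sexes) a single pool lay far from the other 3. Chance alone gives about 1 in 20 such groups where all 4 pools come from 1 source. Here each group held 2 pools from each of 2 lines, so the share found cannot be judged against that rate. *Ugt316A1* in sensitive females was 1372 in the second S1 pool against 2000 to 2085 in the others. *Ugt35C1* in control females was 2028 in the second C2 pool against 1369 to 1390 in the others. *Ugt37B1* in control females was 194 in the first C2 pool against 333 to 366 in the others.

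The resistant minus sensitive difference was not the same in the 2 line pairs for 10 members (limma, adjusted p under 0.05 for the difference of the differences, log2 scale, R1 minus S1 less R2 minus S2). It was 2.97 ± 0.44 for *Ugt303B1* (adjusted p = 0.00017), 1.40 ± 0.20 for *Ugt49C1* (0.000141), -0.77 ± 0.098 for *Ugt35B1* (4.34e-05), 1.29 ± 0.24 for *Ugt35C1* (0.00103) and 1.04 ± 0.19 for *Ugt301D1* (0.00104). It was 1.25 ± 0.24 for *Ugt36A1*, known as *Dot* (0.00154), 0.97 ± 0.23 for *Ugt37D1* (0.00682), 0.83 ± 0.22 for *Ugt49B1* (0.0154), 1.16 ± 0.35 for *Ugt37A2* (0.0279) and 2.15 ± 0.66 for *Ugt36F1* (0.032). *Ugt36A1* and *Ugt36F1* had no line effect at the threshold of 0.001, and the female Signals of *Ugt36F1* were mostly under 50.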

How the results depend on the processing

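In sex calls (11 members higher in males, 3 in females), 18 of the 24 fits without 1 pool gave 10 for males, and the range was 10 to 14, with 3 to 3 for females. Quantile normalization over all arrays gave 8 for females, and under it *Ugt303B2* turned to -1.53 and *Ugt36F1* to -0.48. Line calls (10) were 6 to 14 without 1 pool, and 6 when any of 6 pools was left out, which were both R1 male pools, the first R1 female pool, the first R2 male pool and both R2 female pools. The methods' analysis of variance on Signal gave 5 and male pools alone 3. Interaction calls stayed at 0 to 0 without 1 pool.

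Resistant minus sensitive calls (5 higher, 2 lower) were 4 to 7 higher and 1 to 6 lower without 1 pool, with 6 without the first S1 female pool and 1 without the second S1 female, first S1 male, second R2 male or first R2 female pool. Lower calls were 4 with log2(Signal + 50), 1 in the methods' analysis of variance and 1 with line as random block. Higher calls were 0 with line as random block, and line means gave 0 higher and 0 lower. Male pools alone gave 2 higher and 1 lower.

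Resistant minus control calls (2 higher, 6 lower) were 2 to 3 higher and 3 to 9 lower without 1 pool, with 3 lower without any of 16 pools. Sensitive minus control calls (2 higher, 6 lower) were 2 to 3 higher and 2 to 8 lower, with 2 or 3 lower without any of 18 pools. For both contrasts, aligned medians, quantile normalization within each sex and no variance trend each gave 3 lower, the methods' analysis of variance 2 lower, and line as random block and line means 0 higher and 0 lower. The analysis of variance gave 1 higher for sensitive minus control. Male pools alone gave 1 higher and 0 lower for resistant minus control and 1 higher and 1 lower for sensitive minus control.

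Male pools alone, and leaving out both S1 female pools for the sex difference, were chosen after seeing the data. The lone pool left in a group was assumed to vary like the other groups. Replicate numbers did not pair the pools (correlations of deviations between groups -0.15 to 0.18 over 66 pairs, 4 over 0.1). With the replicate block the counts were 10 and 3 for sex, 8 for line, 4 and 2 for resistant minus sensitive, 2 and 4 for resistant minus control and 2 and 4 for sensitive minus control. Using every probe set of a gene changed nothing, since each member has 1. Without the filter, *Ugt307A1* was also higher in females (-1.60, adjusted p = 0.000104) and *Ugt302E1* had a line effect. The cause of these changes was not tested.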
